A study of Mus musculus with 62 samples.

Results

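Hearts of mice bearing a melanoma that does not cause wasting were compared with hearts of mock-injected mice 8 weeks after injection. NCAC stands for injection of non-cachectic melanoma cells and Con for mock injection. All 10 libraries labelled with these groups and week 8 were taken, 5 per group, of 62 libraries in the series. The other libraries come from the same arms at weeks 2, 4 and 6, and from an arm injected with cachectic melanoma cells (CAC), which has 7 libraries at week 8. All animals were female and labelled as 2 months old. The sample labels name the strain C57BL6/J, whereas the series text names NCI Ath/nude mice, a strain without a thymus that has few mature T cells. Each library is described as a biological replicate, and the melanoma lines and the injection site are not named in the sources used here. The CAC and NCAC arms differ in the injected cell line as well as in wasting.

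Cachexia is the loss of muscle and fat that accompanies many cancers. The heart can lose mass in it as well, through increased proteolysis and reduced protein synthesis, and it responds to circulating cytokines with acute phase and stress genes. A tumour that grows without causing wasting serves as the arm that carries a tumour load without the cachectic state. Cardiac muscle draws most of its energy from fatty acids through a large mitochondrial compartment, and its tissue also holds endothelial cells, fibroblasts, pericytes and resident macrophages.

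Expression was given as TPM, a transcript's share of its library corrected for transcript length, and was rescaled between libraries by the median of gene ratios. Levels below are rescaled TPM, and differences are on the log2 scale after adding 1. A gene is said to have risen or fallen where limma, fitted over 61 libraries and 12541 genes, gave a Benjamini-Hochberg adjusted p under 0.05. A rough measure of relative depth ran from 1.00 to 1.10 in NCAC and from 0.920 to 1.02 in Con, with Con replicate 1 set to 1. It was taken from the most frequent ratio of low TPM values to those of Con replicate 1. Read numbers were not given, so this measure does not show that sequencing depth was the same. The share of deposited TPM from mitochondrially encoded genes was 57.2 ± 1.06% in NCAC hearts and 58.3 ± 3.28% in Con hearts (SD, n = 5 each; exact permutation test, two-sided p = 0.476, smallest possible 0.00794). Without Con replicate 2, the Con heart with the lowest share (52.9%), that difference was -2.49 percentage points with an exact permutation p of 0.0238. It was the largest difference when each heart was left out in turn, and its p was not adjusted for that choice.

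The tissue carried its defining markers. Sarcomere genes summed to 56854 to 73750 rescaled TPM in NCAC hearts and to 55573 to 62383 rescaled TPM in Con hearts. Of 9 melanocyte and melanoma markers, the pigment enzyme gene Tyr was at 0 in all 10 libraries, and Tyrp1, another pigment enzyme gene, was at 0 in 3 of 5 NCAC hearts, was at most 0.410 rescaled TPM in the others, and was at 0 in all Con hearts. Mlana, Pmel, Slc45a2 and Oca2 stayed at or below 0.466 rescaled TPM in NCAC hearts and 0.293 rescaled TPM in Con hearts. Dct, Sox10 and Mitf, the last of which heart muscle also expresses, were highest at 4.90, 1.34 and 20.7 rescaled TPM in NCAC hearts and at 4.13, 1.84 and 14.4 rescaled TPM in Con hearts. The whole list summed to 15.6 to 26.99 rescaled TPM in NCAC hearts and to 17.9 to 18.5 rescaled TPM in Con hearts. In whole tissue, fewer cells of a type and less RNA per cell cannot be told apart.

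NCAC hearts differed from Con hearts in many genes by small amounts. Of 12541 genes, 519 rose (4.14%) and 210 fell (1.67%), with median log2 differences of 0.25 and -0.26 among them, and the median over all genes was -0.0041. A log2 difference of at least 1 in either direction was reached by 5 of these genes. The rising genes included subunits of the ribosome, the respiratory chain and the proteasome. Of listed interferon genes, 2 of 23 type I and 2 of 14 interferon-gamma induced genes fell. Of 16 macrophage markers 1 fell, as did 1 of 18 endothelial markers, where 1.67% of all genes fell. The 5 NCAC values lay entirely above or entirely below the 5 Con values for 671 genes (5.35%), which included 279 of the genes that rose and 95 of those that fell. With TPM as deposited, which moved the median over all genes to -0.05, 61 genes rose and 28 fell, and 594 were higher and 1348 lower at an unadjusted p under 0.05. The count also depended on single hearts. It came to 185 higher and 59 lower without NCAC replicate 3, to 751 higher and 450 lower without NCAC replicate 5, and to 321 higher and 111 lower without Con replicate 3. List counts given below for fits without 1 of these hearts are to be read beside these totals. The number that fell was 112, 111 and 125 without NCAC replicate 2, NCAC replicate 4 and Con replicate 5.

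Cytoplasmic ribosomal proteins, the structural proteins of the translating ribosome, formed the list with the most genes that rose. Of 40 tested, 27 rose and none fell, where 4.14% of all genes rose. The median log2 difference was 0.23. A positive difference was found for 39 of 40, and for 6101 of all 12541 genes. Rps18, a protein of the small subunit, had 34.9, 35.04, 44.2, 35.7 and 31.01 rescaled TPM in the 5 NCAC hearts and 22.4, 23.8, 24.999, 23.2 and 25.1 rescaled TPM in the 5 Con hearts. Every NCAC heart was above every Con heart (log2 difference 0.57, SE 0.09, limma adjusted p = 0.000107). Rps18 lies on the minus strand at chr17:33951999-33956001 (mm10). Rpl39, a small protein beside the exit tunnel of the large subunit, had 108, 108, 128, 112 and 95.4 rescaled TPM in NCAC hearts and 75.02, 75.7, 76.8, 68.5 and 85.5 rescaled TPM in Con hearts. These values did not overlap either, and NCAC replicate 3 was the highest for both genes (log2 difference 0.52, SE 0.08, limma adjusted p = 0.000135).

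Rps21 and Rps7 of the small subunit and Rpl13 of the large subunit also had ranges that did not overlap. Rps21 averaged 249 ± 31.7 rescaled TPM in NCAC hearts and 174 ± 13.95 rescaled TPM in Con hearts, Rps7 averaged 283 ± 29.3 rescaled TPM in NCAC hearts and 219.7 ± 6.14 rescaled TPM in Con hearts and Rpl13 averaged 176 ± 14.8 rescaled TPM in NCAC hearts and 131 ± 8.99 rescaled TPM in Con hearts (SD, n = 5 each). Their log2 differences were 0.50, 0.36 and 0.42, with limma adjusted p = 0.000150, 0.000211 and 0.000361. Rps27 rose to 225 ± 41.3 rescaled TPM in NCAC hearts, against 160.4 ± 10.9 in Con hearts (limma adjusted p = 0.000597). Its near-identical copy Rps27rt shares reads with it, and the sum of both was 272 ± 37.4 rescaled TPM in NCAC hearts and 241 ± 19.1 rescaled TPM in Con hearts. Rps3a1 had the largest log2 difference of the named ribosomal genes (596 ± 33.4 rescaled TPM in NCAC hearts and 367 ± 121 rescaled TPM in Con hearts; log2 difference 0.76, SE 0.24, limma adjusted p = 0.0457), and of the 10 fits that left out 1 heart it passed in those without NCAC replicate 5 and without Con replicate 5 and in no other.

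The number of ribosomal protein genes that rose was 12 without NCAC replicate 3, 20 without Con replicate 3 and 34 without NCAC replicate 5. Summed over the list, the level ran from 8205 to 10523 rescaled TPM in NCAC hearts with a median of 8403, and from 7181 to 7764 rescaled TPM in Con hearts with a median of 7455, so the lowest NCAC heart lay above the highest Con heart. In the time course, Rps18 averaged 32.2, 31.9 and 29.98 rescaled TPM in NCAC hearts at weeks 2, 4 and 6. The Con means at those weeks were 31.7, 32.2 and 27.6 rescaled TPM. The week 8 mean of 36.2 in NCAC hearts was above the earlier NCAC means, and the week 8 mean of 23.9 in Con hearts was below the earlier Con means.

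**Figure D1:**
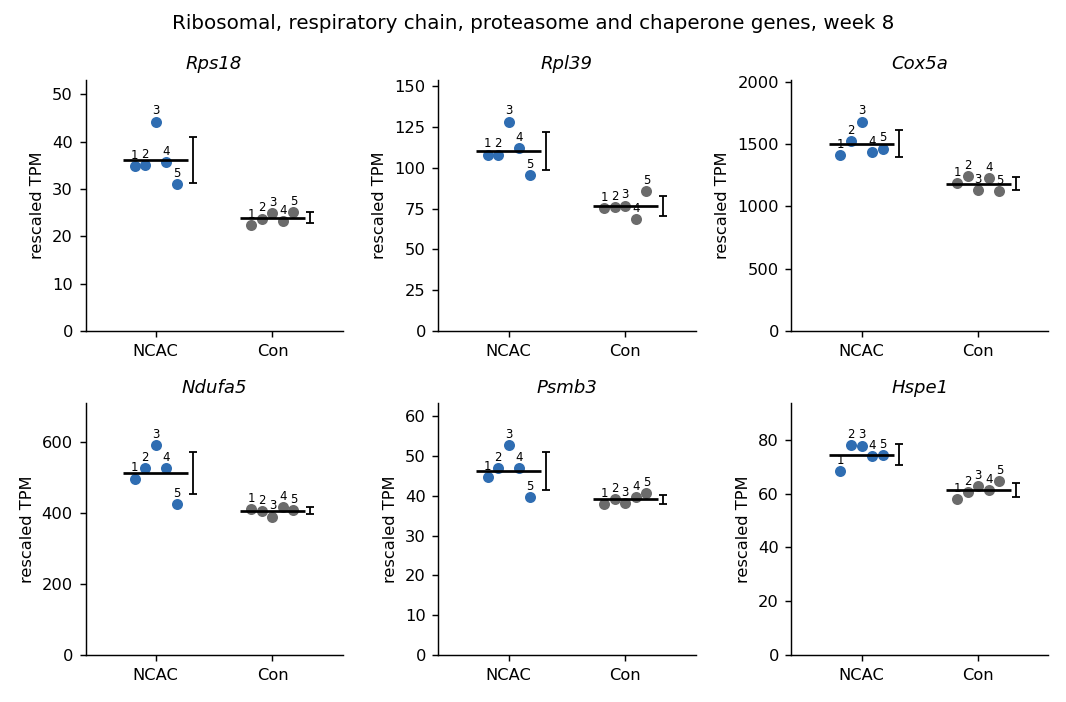
Rescaled TPM of Rps18, Rpl39, Cox5a, Ndufa5, Psmb3 and Hspe1 in each week 8 heart of the NCAC (left) and Con (right) groups, with points numbered by replicate, the bar at the mean and whiskers of 1 SD (n = 5 each). For Rps18, Rpl39, Cox5a, Ndufa5 and Hspe1 every NCAC point lies above every Con point.

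Nuclear-encoded subunits of the respiratory chain, which passes electrons to oxygen and makes ATP, moved in the same direction. Of 43 tested, 18 rose and none fell, where 4.14% of all genes rose. All 43 differences were positive, against 6101 of all 12541 genes, and the median was 0.20. Cox5a, a subunit of cytochrome c oxidase, had 1411, 1527, 1680.2, 1438 and 1464 rescaled TPM in NCAC hearts and 1188, 1247, 1133, 1228 and 1124 rescaled TPM in Con hearts. All NCAC values exceeded all Con values (log2 difference 0.34, SE 0.07, limma adjusted p = 0.00250). Ndufa5, an accessory subunit of complex I, had 496, 525, 590.0, 525 and 426 rescaled TPM in NCAC hearts and 410.4, 405, 389, 417 and 407 rescaled TPM in Con hearts. NCAC replicate 5 was the lowest of its group and still above every Con heart (log2 difference 0.33, SE 0.07, limma adjusted p = 0.00258).

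Cox7b, another subunit of cytochrome c oxidase, had a log2 difference of 0.33 (987 ± 129 rescaled TPM in NCAC hearts and 781 ± 21.4 rescaled TPM in Con hearts; limma adjusted p = 0.00153), and Ndufa12 of complex I one of 0.22 (280.4 ± 26.7 rescaled TPM in NCAC hearts and 239 ± 7.59 rescaled TPM in Con hearts; limma adjusted p = 0.00624). Without NCAC replicate 3, 3 of the 43 genes rose and Ndufa12 no longer passed (limma adjusted p = 0.0698). The count was 7 without Con replicate 3 and 27 without NCAC replicate 5. Summed levels of the list ran from 29595 to 36993 rescaled TPM in NCAC hearts and from 27872 to 30212 rescaled TPM in Con hearts, and the ranges overlapped.

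Among 13 mitochondrially encoded genes 1 rose, where 4.14% of all genes rose. It was mt-Nd6, the complex I subunit encoded on the light strand of the mitochondrial genome. It had 630.3, 860.0, 1016, 745 and 878 rescaled TPM in NCAC hearts and 593, 364, 467, 463 and 474 rescaled TPM in Con hearts. The groups did not overlap (log2 difference 0.80, SE 0.20, limma adjusted p = 0.00948), and without NCAC replicate 3 the limma adjusted p was 0.0576. With a trend of the log2 levels with transcript length removed in each library, described below, mt-Nd6 did not pass (limma adjusted p = 0.135), and of the 13 genes none rose and 1 fell. Transcripts of the opposite strand cover the same stretch, and whether the counting used strand is not given in the sources used here, so their reads may not have been told apart.

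Of 26 subunits of the proteasome, the protease that degrades ubiquitin-tagged proteins, 10 rose and none fell, where 4.14% of all genes rose. The median log2 difference was 0.13. The core subunit Psmb3 averaged 46.2 ± 4.70 rescaled TPM in NCAC hearts and 39.1 ± 1.15 rescaled TPM in Con hearts (SD, n = 5 each; log2 difference 0.23, SE 0.05, limma adjusted p = 0.00169). Psmb7, Psmb1 and Psmb6, further core subunits, had log2 differences of 0.18, 0.18 and 0.18 (limma adjusted p = 0.00667, 0.0148 and 0.0202). Without NCAC replicate 3 the count was 1 of 26 and without NCAC replicate 5 it was 16. Psmb7 lost its call without NCAC replicate 3, Psmb1 without NCAC replicate 2 or 3, and Psmb6 without NCAC replicate 3 or Con replicate 1 or 3.

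Of 18 heat shock and chaperone genes 2 rose, where 4.14% of all genes rose. Hspe1, the mitochondrial co-chaperonin, had 68.3, 77.98, 77.8, 73.9 and 74.3 rescaled TPM in NCAC hearts and 57.99, 60.5, 62.9, 61.3 and 64.8 rescaled TPM in Con hearts. The ranges were apart, with NCAC replicate 1 nearest to the Con hearts (log2 difference 0.27, SE 0.06, limma adjusted p = 0.00469). Hspb1, a small heat shock protein, averaged 213 ± 30.3 rescaled TPM in NCAC hearts and 165 ± 6.60 rescaled TPM in Con hearts (log2 difference 0.35, SE 0.10, limma adjusted p = 0.0250) and lost its call without NCAC replicate 2, 3 or 5 or Con replicate 3 or 5. Of 21 adult sarcomere genes 1 rose, near the share of 4.14% over all genes. It was the cardiac troponin I gene Tnni3, with 3233 ± 361 rescaled TPM in NCAC hearts and 2737 ± 163 rescaled TPM in Con hearts (log2 difference 0.24, SE 0.07, limma adjusted p = 0.0439). The call for Tnni3 held without NCAC replicate 5 and without Con replicate 4 and in no other fit without 1 heart. The median over the sarcomere list was 0.15, and 4 of its genes rose without NCAC replicate 5. With the length trend removed no heat shock or sarcomere gene rose, at log2 differences of 0.13 for Hspe1, 0.23 for Hspb1 and 0.12 for Tnni3 (limma adjusted p = 0.263, 0.261 and 0.376).

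The differences ran with transcript length. Genes that rose had a median annotated length of 1001 nucleotides and genes that fell one of 4912 nucleotides, against 2625 nucleotides over all genes tested. Among 162 genes of up to 500 nucleotides 41 rose (25.3%) and none fell, and among 1660 genes over 5000 nucleotides 4 rose and 100 fell (6.02%). The classes between them followed the same order, with median log2 differences of 0.23, 0.14, 0.05, -0.0026, -0.04 and -0.08 from the shortest class to the longest. Of 1069 genes over 500 and up to 1000 nucleotides, 208 rose (19.5%). Of 2976 genes over 1000 and up to 2000 nucleotides, 191 rose (6.42%). Median lengths were 869 nucleotides in the ribosomal protein list, 861 in the respiratory chain list and 1337 in the proteasome list. Across 12124 genes Spearman's rho between length and the log2 difference was -0.44, a description over genes that share the same 10 libraries.

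**Figure D2:**
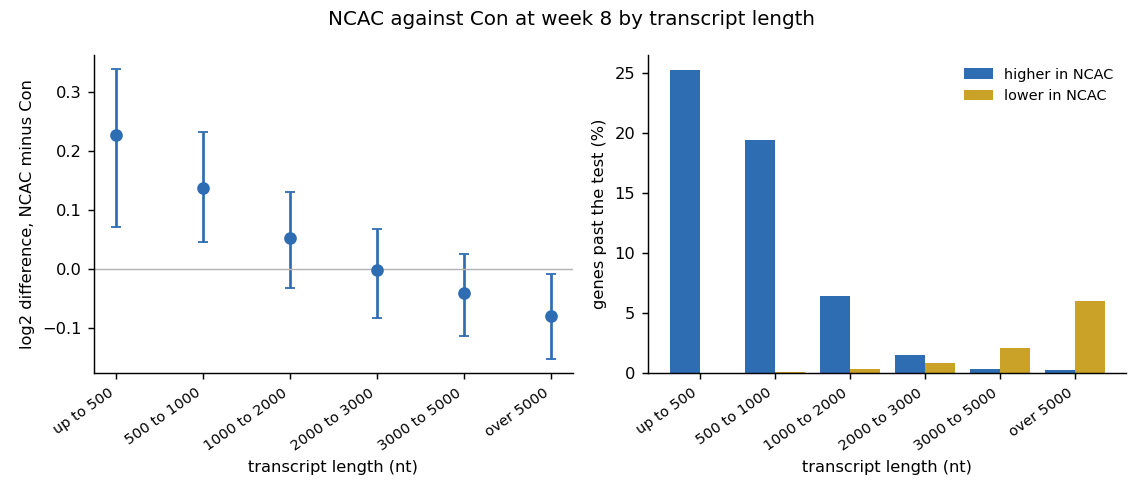
Median log2 difference of NCAC minus Con at week 8 with quartiles, and the percentage of genes past the test in each direction, by class of annotated transcript length. Medians run from 0.23 in genes of up to 500 nucleotides to -0.08 in genes over 5000 nucleotides.

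Per library, the median log2 level of genes under 1646 nucleotides minus that of genes over 3974 nucleotides, each gene centred over 61 libraries, was -0.00234, 0.0504, 0.174, 0.0384 and -0.0289 in NCAC hearts. In Con hearts it was -0.147, -0.117, -0.133, -0.101 and -0.118. All 5 Con hearts were below all NCAC hearts, and NCAC replicate 3 was the highest. The medians of the other 10 groups lay between -0.0492 and 0.0470, so the Con week 8 median of -0.118 was outside them and the NCAC week 8 median of 0.0384 was within them. Among the 519 genes that rose, the NCAC week 8 mean was above all 3 earlier NCAC means in 421 (81.1%), and the Con week 8 mean was below all 3 earlier Con means in 508 (97.9%). Over all genes tested these shares were 30.6% and 27.6%. Among the 210 genes that fell, the NCAC week 8 mean was below the earlier NCAC means in 179 (85.2%), and the Con week 8 mean was above the earlier Con means in 184 (87.6%). The shares for those 2 directions over all genes tested were 27.6% and 30.0%. The genes that rose or fell were selected on the same week 8 levels, which favours extreme week 8 means, so the shares are a description and carry no test.

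When the trend with length was removed within each library, 110 of 12541 genes rose and 44 fell, of which 100 and 33 were also called without that step. Under that setting 8 of 40 ribosomal protein genes rose (median 0.11), as did 1 of 43 respiratory chain genes (median 0.08) and 1 of 26 proteasome subunits. Whether 1 gene in a list exceeds the share over all genes was not tested. Of the 50 named genes past the test, 14 still passed. They were Rps18 (log2 difference 0.38, limma adjusted p = 0.00277), Rpl39, Rps21, Rps7, Rpl13, Cox7b, Rnaset2a, Scand1 and Gm2000 among those that rose, and Irf1, Tapbp, Notch1, Fam102a and Rgs4 among those that fell. Among the 36 that no longer passed were Cox5a, Ndufa5 and Psmb3 (limma adjusted p = 0.108, 0.143 and 0.2499), Rps27 (0.128), Cdh5 (0.164) and Csf1r (0.130). RNA integrity values are not given, and their part in the length trend was not tested.

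**Figure D3:**
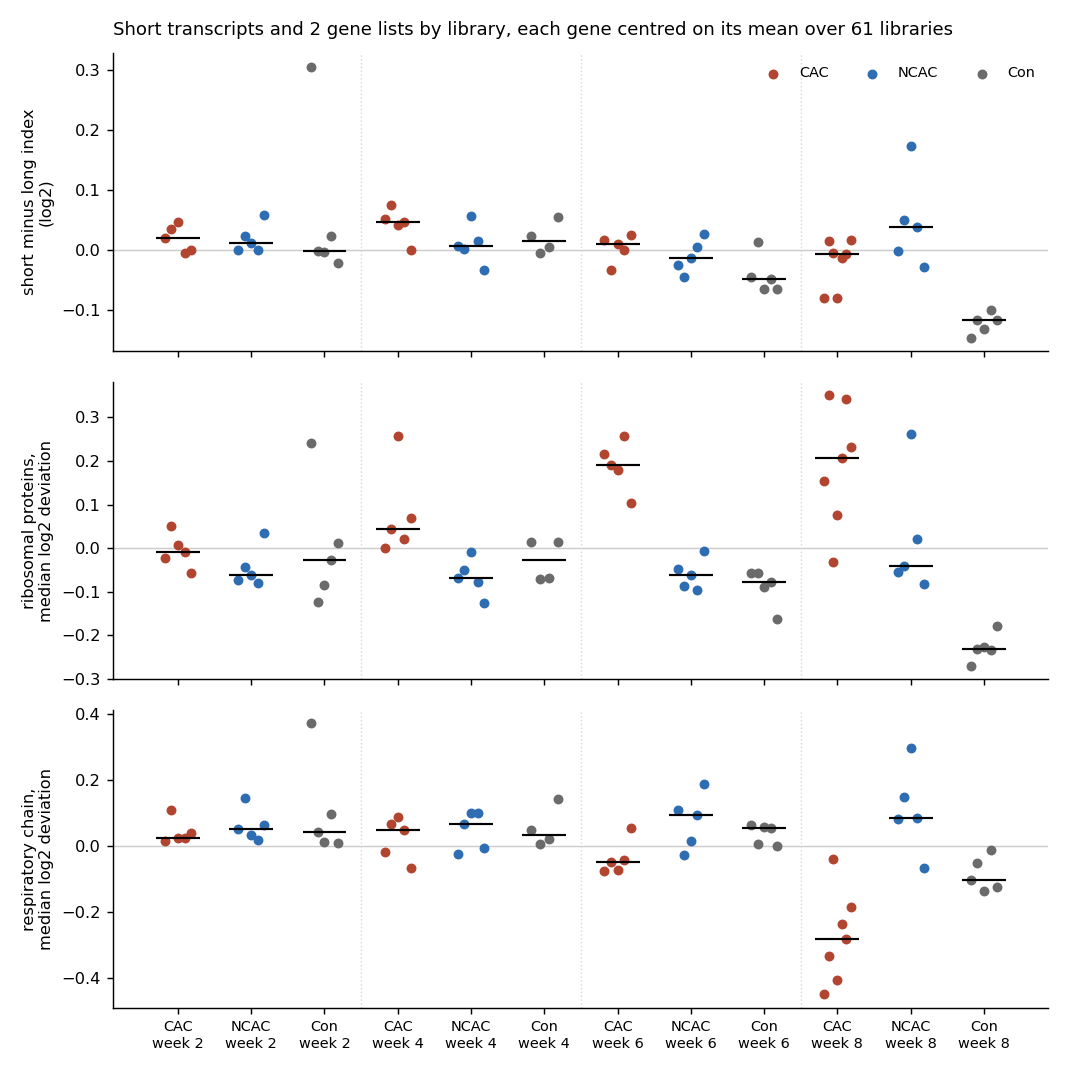
Short-minus-long index, and the median log2 deviation of ribosomal protein and respiratory chain genes, for each of 61 libraries in 12 groups, each gene centred on its mean over 61 libraries, with a bar at the group median. The Con week 8 group has the lowest median of the 12 groups on the short-minus-long index, at -0.118.

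Some interferon-inducible genes fell in NCAC hearts, and none of those listed rose. Type I interferons act on their target genes through the interferon-stimulated response element, and interferon-gamma acts through the gamma-activated site. All 23 genes tested of the type I response had negative log2 differences, with a median of -0.32, and 2 fell. All 14 interferon-gamma induced genes were negative as well, with a median of -0.59, and 2 fell. Over all genes 1.67% fell, and 6436 of 12541 had a negative difference. The shared sign is a description over genes that share the same 10 libraries. The interferon genes named below kept their direction with TPM as deposited.

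The start regions of 3 of the genes that fell are shown because they carry the letters of the response elements to which the interferon-activated factors bind. Each runs 5′ to 3′ from 250 bases before to 50 bases after the start of the gene as in RefSeq (build GRCm38.p6), with matches in capitals. The gamma-activated site was searched as TTCNNNGAA and the interferon-stimulated response element as GAAA, any 2 bases and GAAA, both on both strands.
Irf1, chr11:53769764-53770063, plus strand: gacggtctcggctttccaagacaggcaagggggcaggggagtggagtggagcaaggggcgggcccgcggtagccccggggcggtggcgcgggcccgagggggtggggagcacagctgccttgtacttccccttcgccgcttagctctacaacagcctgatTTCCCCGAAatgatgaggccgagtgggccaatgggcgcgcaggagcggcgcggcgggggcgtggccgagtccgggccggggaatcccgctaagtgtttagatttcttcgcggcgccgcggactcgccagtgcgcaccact
Irgm1, chr11:48871371-48871670, minus strand: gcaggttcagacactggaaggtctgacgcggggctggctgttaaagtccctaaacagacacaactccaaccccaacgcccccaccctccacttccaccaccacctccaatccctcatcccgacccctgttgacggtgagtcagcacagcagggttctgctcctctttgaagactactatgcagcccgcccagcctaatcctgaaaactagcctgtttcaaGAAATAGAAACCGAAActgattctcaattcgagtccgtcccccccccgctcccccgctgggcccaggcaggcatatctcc
Stat2, chr10:128270248-128270547, plus strand: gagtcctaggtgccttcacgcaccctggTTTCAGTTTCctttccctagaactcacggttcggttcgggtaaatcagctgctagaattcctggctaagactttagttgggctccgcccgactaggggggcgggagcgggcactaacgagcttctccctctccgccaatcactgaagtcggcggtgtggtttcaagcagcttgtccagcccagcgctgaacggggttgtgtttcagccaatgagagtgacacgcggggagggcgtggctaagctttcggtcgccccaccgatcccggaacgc
RefSeq gives Irf1 another start, whose window held no match. The capitals in Irf1 mark a gamma-activated site match that begins 90 bases before the start, those in Irgm1 a pair of overlapping response element matches that begin 30 and 24 bases before it, and those in Stat2 a response element match that begins 222 bases before it. Among all 32851 windows of this kind, 2726 (8.3%) held a gamma-activated site match and 1131 (3.44%) a response element match. Of 7 interferon-related genes looked up, 6 had a window, and Parp14 had none in the table. Ddx58 had a response element match 2 bases after its start, and the windows of Tapbp and Rnf213 held neither run of letters. These matches describe the sequence and were not set against binding data.

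Irf1, an interferon-regulatory transcription factor, was the steadiest of them. It had 8.16, 9.30, 7.76, 7.32 and 8.29 rescaled TPM in NCAC hearts and 13.02, 10.1, 11.6, 9.36 and 13.6 rescaled TPM in Con hearts. Every NCAC heart was below every Con heart (log2 difference -0.44, SE 0.11, limma adjusted p = 0.00817), and the call held in each of the 10 fits without 1 heart, with adjusted p up to 0.0415. It also held with the length trend removed (log2 difference -0.46, limma adjusted p = 0.0143). Irf1 spans chr11:53770014-53778374 (mm10).

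For other members a pair of Con hearts stood apart. Irgm1, an immunity-related GTPase of intracellular pathogen defence, had 5.41, 5.55, 4.98, 3.88 and 5.45 rescaled TPM in NCAC hearts and 20.5, 5.22, 6.34, 6.03 and 13.03 rescaled TPM in Con hearts, with Con replicates 1 and 5 above all NCAC hearts (log2 difference -0.72, SE 0.22, limma adjusted p = 0.0402). Con replicates 2 to 4 lay within or just above the NCAC range. Iigp1, another GTPase of this family, did not pass (log2 difference -1.14, SE 0.42, limma adjusted p = 0.102), with 27.5, 20.5, 18.6, 11.6 and 22.9 rescaled TPM in NCAC hearts and 149.7, 24.99, 24.3, 20.8 and 85.8 rescaled TPM in Con hearts. It and the related predicted gene Gm4841 were chosen after their values were seen. Gm4841 had 2.00, 0.464, 0.0852, 0.173 and 0.205 rescaled TPM in NCAC hearts and 30.8, 0.505, 0.575, 0.966 and 12.9 rescaled TPM in Con hearts (log2 difference -1.65, SE 0.51, limma adjusted p = 0.0423).

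Stat2, a transcription factor of the type I pathway, had 6.10, 5.71, 5.48, 5.01 and 7.42 rescaled TPM in NCAC hearts and 11.9, 7.21, 8.27, 6.44 and 8.96 rescaled TPM in Con hearts. The ranges overlapped, since NCAC replicate 5 was above Con replicates 2 and 4 (log2 difference -0.44, SE 0.13, limma adjusted p = 0.0245). Ddx58, which encodes the RNA sensor RIG-I, averaged 3.15 ± 0.547 rescaled TPM in NCAC hearts and 4.19 ± 0.563 rescaled TPM in Con hearts (limma adjusted p = 0.0397). Parp14, an ADP-ribosyltransferase of the interferon response, averaged 4.95 ± 1.16 rescaled TPM in NCAC hearts and 7.71 ± 2.06 rescaled TPM in Con hearts (limma adjusted p = 0.0234), and the large ubiquitin ligase gene Rnf213 averaged 5.51 ± 1.55 rescaled TPM in NCAC hearts and 7.95 ± 0.912 rescaled TPM in Con hearts (limma adjusted p = 0.0114). The calls ended without NCAC replicate 2, 3 or 4 or Con replicate 1, 3 or 5 for Stat2, and for Ddx58 without any heart but NCAC replicate 5 and Con replicates 2 and 4. They ended without NCAC replicate 3 or 4 or Con replicate 1 or 5 for Parp14, and without NCAC replicate 3 for Rnf213.

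Without Con replicate 1, and likewise without Con replicate 5, none of the 23 type I genes and 1 of the 14 interferon-gamma genes passed. The call for Irgm1 ended without NCAC replicate 2, 3 or 4 or Con replicate 1 or 5, and that for Gm4841 without NCAC replicates 2 to 5 or Con replicate 1 or 5, each left out singly. The highest limma adjusted p in those fits was 0.231 for Irgm1, 0.131 for Stat2 and 0.255 for Gm4841. The type I count was also 0 without NCAC replicate 2, 3 or 4 or Con replicate 3, and 4 without NCAC replicate 5, and the interferon-gamma count was 1 without NCAC replicate 2, 3 or 4 and 5 without Con replicate 2. With both Con replicates 1 and 5 left out, a setting chosen after the data were seen, no member of either list passed and the medians were -0.27 and -0.22. Summed levels of the interferon-gamma list ran from 73.9 to 114 rescaled TPM in NCAC hearts with a median of 103, and from 107 to 541 rescaled TPM in Con hearts with a median of 134. With the length trend removed, none of the type I genes passed (median -0.38) and 1 of the interferon-gamma genes fell (median -0.55).

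**Figure D4:**
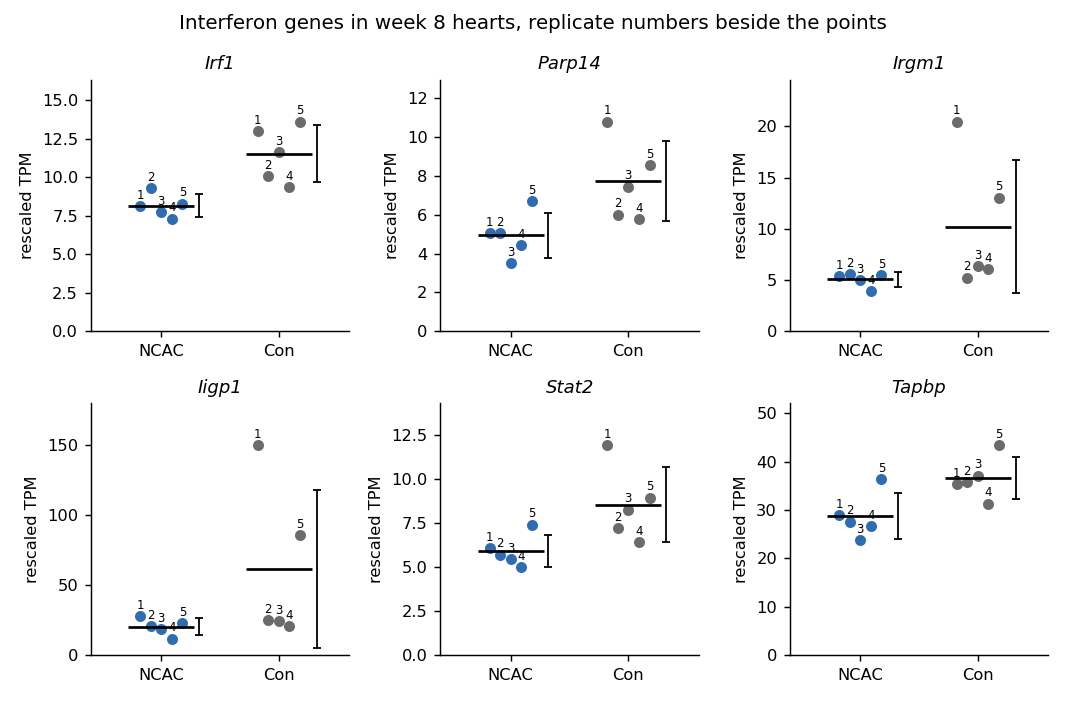
Rescaled TPM of Irf1, Parp14, Irgm1, Iigp1, Stat2 and Tapbp in each week 8 heart of the NCAC (left) and Con (right) groups, with points numbered by replicate, the bar at the mean and whiskers of 1 SD (n = 5 each). Every NCAC point lies below every Con point for Irf1, whereas Con replicates 1 and 5 stand far above the other hearts for Irgm1 and Iigp1.

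Genes of MHC class I presentation, which displays peptides from inside the cell and is induced by interferons, had negative differences in all 16 members tested. Their median was -0.37, and 6436 of all 12541 genes were negative. Of the 16 genes 1 fell, where 1.67% of all genes fell. That gene was Tapbp, the chaperone that bridges class I molecules to the peptide transporter, with 28.9, 27.6, 23.7, 26.7 and 36.4 rescaled TPM in NCAC hearts and 35.3, 35.7, 37.1, 31.3 and 43.4 rescaled TPM in Con hearts. NCAC replicate 5 overlapped the Con range and the other NCAC hearts were below it (log2 difference -0.35, SE 0.08, limma adjusted p = 0.00770). Without NCAC replicate 3 the adjusted p for Tapbp was 0.0705 and the list held no call, and without NCAC replicate 5 it held 2. All 6 MHC class II genes tested were negative with a median of -0.62, and none passed in limma, nor at an unadjusted p under 0.05. Without Con replicates 1 and 5 these medians were -0.18 and -0.13.

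Of 16 macrophage and monocyte markers 1 fell, where 1.67% of all genes fell. It was Csf1r, the receptor for the growth factor on which macrophages depend, and the list median was -0.23. Csf1r had 8.72, 9.48, 7.44, 8.71 and 11.6 rescaled TPM in NCAC hearts and 13.3, 11.6, 10.8, 10.4 and 13.2 rescaled TPM in Con hearts. NCAC replicate 5 lay within the Con range and the others below it (log2 difference -0.34, SE 0.10, limma adjusted p = 0.0246), and the call ended without NCAC replicate 3 or 4 or Con replicate 1 or 5, while 2 markers fell without NCAC replicate 5. In CAC hearts at week 8 Csf1r averaged 21.98 rescaled TPM, above the NCAC mean of 9.18 (log2 difference 1.18, limma adjusted p = 2.43e-15), and 15 of 16 macrophage markers were higher in CAC than in NCAC hearts, where 25.7% of all genes were. The summed macrophage level was 115 to 199 rescaled TPM in NCAC hearts and 157 to 226.8 rescaled TPM in Con hearts. None of 6 neutrophil, 7 B and plasma cell and 2 NK and T cell markers tested passed in limma, nor at an unadjusted p under 0.05.

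A few genes of vessels and their regulators fell. Each of the lists of such genes below held 1 of them, where 1.67% of all genes fell. Whether 1 gene in such a list exceeds that share was not tested. Notch1, a receptor for cell-to-cell signals that shapes vessel branching, had 5.15, 4.59, 4.89, 4.93 and 5.92 rescaled TPM in NCAC hearts and 6.43, 6.30, 7.28, 7.57 and 8.17 rescaled TPM in Con hearts. The groups did not overlap and no single heart decided the call (log2 difference -0.42, SE 0.08, limma adjusted p = 0.00107). With the length trend removed Notch1 remained lower (log2 difference -0.33, limma adjusted p = 0.0381). Of 18 angiogenic factors 1 fell, which was Notch1, and the list median was -0.14, with 2 that fell without NCAC replicate 5.

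Among 18 endothelial markers 1 fell, Cdh5, the VE-cadherin of endothelial junctions, with 66.5 ± 9.75 rescaled TPM in NCAC hearts and 84.3 ± 6.69 rescaled TPM in Con hearts (log2 difference -0.35, SE 0.11, limma adjusted p = 0.0407), and it passed in 2 of the 10 fits without 1 heart, those without NCAC replicate 5, where 3 markers fell, and without Con replicate 4. The list median was -0.15, and summed endothelial levels were 1361 to 1866 rescaled TPM in NCAC hearts and 1329 to 1514 rescaled TPM in Con hearts. Sox7, a transcription factor of endothelial cells, averaged 10.53 ± 1.44 rescaled TPM in NCAC hearts and 16.9 ± 3.87 rescaled TPM in Con hearts (log2 difference -0.62, SE 0.18, limma adjusted p = 0.0239). Adora2a, an adenosine receptor that relaxes coronary vessels, averaged 6.41 ± 1.32 rescaled TPM in NCAC hearts and 10.04 ± 1.19 rescaled TPM in Con hearts (log2 difference -0.59, SE 0.18, limma adjusted p = 0.0361). Sox7 averaged 6.45 rescaled TPM and Adora2a 3.69 rescaled TPM in CAC hearts at week 8, below the NCAC means (CAC minus NCAC log2 difference -0.64, limma adjusted p = 0.000804 for Sox7; log2 difference -0.67, limma adjusted p = 0.000535 for Adora2a). The call for Sox7 in NCAC against Con ended without NCAC replicate 3 or Con replicate 3, 4 or 5, and that for Adora2a without NCAC replicate 1, 3 or 4 or Con replicate 1, 2, 3 or 4.

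Notch3, the Notch receptor of smooth muscle and pericytes, had ranges apart (12.05 ± 1.08 rescaled TPM in NCAC hearts and 15.2 ± 0.795 rescaled TPM in Con hearts; log2 difference -0.32, SE 0.09, limma adjusted p = 0.0197) and was the gene that fell among 14 smooth muscle and pericyte markers. Smad7, an inhibitor within the TGF-beta pathway, averaged 4.94 ± 0.645 rescaled TPM in NCAC hearts and 7.97 ± 2.26 rescaled TPM in Con hearts (log2 difference -0.57, SE 0.17, limma adjusted p = 0.0306) and was the gene that fell among 18 TGF-beta, Wnt and BMP regulators. Rgs4, which shortens G protein signals in cardiac and vascular muscle, averaged 10.9 ± 2.28 rescaled TPM in NCAC hearts and 15.6 ± 2.06 rescaled TPM in Con hearts (log2 difference -0.49, SE 0.13, limma adjusted p = 0.0141). Without NCAC replicate 3 the calls for Notch3, Smad7 and Rgs4 ended, with limma adjusted p = 0.110 for Rgs4. Notch3 also lost its call without NCAC replicate 4, and Smad7 without NCAC replicate 1, 2 or 4 or Con replicate 4 or 5.

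Of 8 adipocyte markers 2 rose, where 4.14% of all genes rose, with a list median of 0.30. Car3, a carbonic anhydrase abundant in fat and slow muscle, had 3.87, 1.43, 3.11, 5.81 and 1.11 rescaled TPM in NCAC hearts and 0.457, 0.879, 0.846, 0.335 and 0.424 rescaled TPM in Con hearts. All NCAC hearts were above all Con hearts, with NCAC replicates 2 and 5 nearest to them (log2 difference 1.24, SE 0.36, limma adjusted p = 0.0287). Adipoq, the fat hormone adiponectin, had 0.892, 0.559, 0.910, 1.39 and 0.162 rescaled TPM in NCAC hearts and 0.0702, 0.283, 0.128, 0.0331 and 0.0351 rescaled TPM in Con hearts, where NCAC replicate 5 lay within the Con range (log2 difference 0.65, SE 0.18, limma adjusted p = 0.0184). Con means at week 6 were 2.31 rescaled TPM for Car3 and 0.594 rescaled TPM for Adipoq. Without NCAC replicate 5, 4 adipocyte markers rose. The call for Adipoq ended without NCAC replicate 3 or 4, and that for Car3 without NCAC replicate 1, 3 or 4 or Con replicate 1, 4 or 5. Leptin (Lep) was at most 0.0394 rescaled TPM, and the fatty acid carrier Fabp4, which endothelial cells also make, was 671 to 1110 rescaled TPM in NCAC hearts and 661 to 740 rescaled TPM in Con hearts. The share of fat tissue on the hearts was not tested.

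Other genes had larger differences. Scand1, a small protein of the SCAN domain family, had 22.3, 22.6, 30.7, 27.8 and 28.96 rescaled TPM in NCAC hearts and 12.1, 16.4, 13.6, 13.6 and 13.3 rescaled TPM in Con hearts. The groups were apart, the call held in every fit without 1 heart and it held with the length trend removed at a log2 difference of 0.74 (limma adjusted p = 0.0121), against 0.89 with SE 0.18 otherwise (limma adjusted p = 0.00153). Rnaset2a, a secreted ribonuclease, had 49.3, 51.4, 79.5, 42.9 and 82.3 rescaled TPM in NCAC hearts and 29.2, 39.98, 30.3, 30.02 and 25.3 rescaled TPM in Con hearts, also apart and held in every such fit (log2 difference 0.92, SE 0.19, limma adjusted p = 0.00198). It has the near-identical copy Rnaset2b, and the pair summed to 132 ± 23.9 rescaled TPM in NCAC hearts and 92.5 ± 10.9 rescaled TPM in Con hearts. The histone gene Hist1h4h, 1 of several H4 copies that can share reads, averaged 47.3 ± 3.43 rescaled TPM in NCAC hearts and 32.2 ± 2.85 rescaled TPM in Con hearts with ranges apart (log2 difference 0.54, SE 0.13, limma adjusted p = 0.00730).

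Kpna2, an importin that carries proteins into the nucleus, had the largest rise among the named genes, with 28.6, 28.1, 27.5, 17.4 and 15.9 rescaled TPM in NCAC hearts and 6.14, 4.57, 6.49, 28.1 and 5.37 rescaled TPM in Con hearts. Con replicate 4 lay at the level of the highest NCAC hearts (log2 difference 1.42, SE 0.45, limma adjusted p = 0.0456), and the call held without NCAC replicate 5 and without Con replicate 4 but not without any other heart. Usp50, a member of the ubiquitin protease family, averaged 5.63 ± 0.708 rescaled TPM in NCAC hearts and 3.68 ± 0.201 rescaled TPM in Con hearts with ranges apart (log2 difference 0.50, SE 0.14, limma adjusted p = 0.0197), and its call ended without NCAC replicate 2 or 4. Gm2000, a predicted gene named after its values were seen, averaged 83.3 ± 11.9 rescaled TPM in NCAC hearts and 31.3 ± 6.37 rescaled TPM in Con hearts (log2 difference 1.40, SE 0.24, limma adjusted p = 0.000211).

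The peroxisomal thiolase genes Acaa1a and Acaa1b moved oppositely. Acaa1a averaged 23.6 ± 3.77 rescaled TPM in NCAC hearts and 16.4 ± 2.67 rescaled TPM in Con hearts (log2 difference 0.50, SE 0.13, limma adjusted p = 0.0146), and Acaa1b averaged 0.485 ± 0.540 rescaled TPM in NCAC hearts and 1.58 ± 0.670 rescaled TPM in Con hearts (log2 difference -0.82, SE 0.25, limma adjusted p = 0.0363). They are near-identical copies whose reads may be split, and their sum was 24.1 ± 3.26 rescaled TPM in NCAC hearts and 18.0 ± 2.13 rescaled TPM in Con hearts. Acaa1a lost its call without NCAC replicate 2 or 4 or Con replicate 1, and Acaa1b without NCAC replicate 2, 4 or 5 or Con replicate 1, 4 or 5.

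Among the falling genes, Fam102a, an estrogen-responsive gene, had 4.73, 5.22, 3.26, 4.05 and 6.00 rescaled TPM in NCAC hearts and 8.15, 7.39, 7.38, 9.60 and 6.86 rescaled TPM in Con hearts. The ranges were apart, with NCAC replicate 3 the lowest, and the call held in every fit without 1 heart (log2 difference -0.66, SE 0.14, limma adjusted p = 0.00274). Slc40a1, the iron exporter ferroportin, had 1.43, 2.32, 2.69, 1.34 and 1.66 rescaled TPM in NCAC hearts and 5.52, 3.48, 3.86, 6.27 and 3.23 rescaled TPM in Con hearts. Its ranges were apart too (log2 difference -0.91, SE 0.27, limma adjusted p = 0.0320), and the call ended without NCAC replicate 1 or 4 or Con replicate 1, 3 or 4. Trp53i11, a p53-inducible gene, averaged 13.01 ± 4.94 rescaled TPM in NCAC hearts and 23.9 ± 4.12 rescaled TPM in Con hearts (log2 difference -0.88, SE 0.27, limma adjusted p = 0.0440). Cacna1c, the pore of the L-type calcium channel and 1 of 13 calcium-handling genes, averaged 42.2 ± 3.51 rescaled TPM in NCAC hearts and 49.4 ± 3.14 rescaled TPM in Con hearts (log2 difference -0.22, SE 0.07, limma adjusted p = 0.0476). Rptor, the scaffold of mTOR complex 1 and 1 of 18 IGF, insulin and mTOR genes, averaged 5.19 ± 0.330 rescaled TPM in NCAC hearts and 5.76 ± 0.191 rescaled TPM in Con hearts (log2 difference -0.13, SE 0.04, limma adjusted p = 0.0429). Cacna1c and Rptor were each the only gene of their list that fell, where 1.67% of all genes fell. Of the 10 fits without 1 heart, Trp53i11 passed in those without NCAC replicate 5 or Con replicate 5, Cacna1c in those without NCAC replicate 1 or 4, and Rptor in those without NCAC replicate 1 or 5 or Con replicate 2. Without NCAC replicate 5, 2 calcium-handling genes rose and 2 genes of the IGF, insulin and mTOR list fell. In that fit 751 of 12537 genes rose and 450 fell.

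Acute phase, stress, atrophy and fuel genes had no member past the test in NCAC against Con. The limma fit took each gene's spread over all 12 groups, so scatter among CAC hearts enters the SE of NCAC against Con. Of 23 acute phase and STAT3 genes none passed in limma, 1 had an unadjusted p under 0.05 and the median was -0.10. In CAC against NCAC hearts all 23 were higher, with a median of 2.04, and leaving out CAC replicate 3 gave 23 and 2.26, where 25.7% of all genes were higher and 25.7% lower in CAC. Serpina3n, an acute phase protease inhibitor, averaged 3.25 ± 1.23 rescaled TPM in NCAC hearts and 2.49 ± 0.747 rescaled TPM in Con hearts (log2 difference 0.26, SE 0.66, limma adjusted p = 0.880). In CAC hearts it ran from 56.9 to 2432 rescaled TPM with a median of 1596, and the CAC minus NCAC log2 difference was 8.05 (limma adjusted p = 2.32e-15), or 8.76 without CAC replicate 3. Lrg1, an acute phase glycoprotein, averaged 23.8 ± 5.34 rescaled TPM in NCAC hearts and 18.7 ± 2.80 rescaled TPM in Con hearts (limma adjusted p = 0.762).

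Lcn2, the iron-binding lipocalin, averaged 1.08 ± 0.603 rescaled TPM in NCAC hearts and 0.870 ± 0.348 rescaled TPM in Con hearts (log2 difference 0.13, SE 0.63, limma adjusted p = 0.942), and it ran from 3.34 to 292 rescaled TPM with a median of 229.9 in CAC hearts. Mt2, a metallothionein that binds zinc, averaged 32.4 ± 17.05 rescaled TPM in NCAC hearts and 21.4 ± 14.97 rescaled TPM in Con hearts (log2 difference 0.65, SE 0.56, limma adjusted p = 0.558), and it ran from 201 to 2397 rescaled TPM with a median of 1716 in CAC hearts. The CAC minus NCAC log2 differences were 6.02 for Lcn2 and 5.33 for Mt2 (limma adjusted p = 2.25e-12 and 2.50e-12), or 6.84 and 5.76 without CAC replicate 3, which was the lowest CAC heart for both.

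None of 16 cardiac stress genes passed in limma in NCAC against Con, and 0 had an unadjusted p under 0.05 (median 0.09). Nppa, the atrial natriuretic peptide, had 27.97, 549, 597, 401 and 191 rescaled TPM in NCAC hearts and 273, 86.8, 146, 221 and 244 rescaled TPM in Con hearts. NCAC replicate 1 was the lowest of all 10 hearts and replicates 2, 3 and 4 the highest (log2 difference 0.39, SE 0.90, limma adjusted p = 0.864). Nppb, the B-type peptide, averaged 230.3 ± 109.9 rescaled TPM in NCAC hearts and 157 ± 66.1 rescaled TPM in Con hearts (log2 difference 0.51, SE 0.38, limma adjusted p = 0.485). Ankrd1, a titin-associated stress protein, averaged 1348 ± 636 rescaled TPM in NCAC hearts and 972 ± 325 rescaled TPM in Con hearts (log2 difference 0.40, SE 0.32, limma adjusted p = 0.521), and its CAC mean of 6011 was higher than the NCAC mean (log2 difference 2.21, limma adjusted p = 1.02e-08), or by 2.40 without CAC replicate 3.

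No contractile gene of the panel passed. Myh6, the adult heavy chain of the atrium and ventricle in mice, averaged 7007 ± 594 rescaled TPM in NCAC hearts and 6838 ± 639 rescaled TPM in Con hearts (log2 difference 0.04, SE 0.11, limma adjusted p = 0.908), against a CAC mean of 3925 (CAC minus NCAC log2 difference -0.87, limma adjusted p = 1.11e-09). Myh7, the slow heavy chain, averaged 396 ± 44.99 rescaled TPM in NCAC hearts and 364 ± 42.3 rescaled TPM in Con hearts (limma adjusted p = 0.573). Acta1, skeletal actin, averaged 576 ± 439.9 rescaled TPM in NCAC hearts and 439.9 ± 283 rescaled TPM in Con hearts (limma adjusted p = 0.848), and its CAC mean of 65.6 was lower (CAC minus NCAC log2 difference -3.15, limma adjusted p = 9.14e-07). Mylk4, a myosin light chain kinase of heart muscle, averaged 99.5 ± 22.3 rescaled TPM in NCAC hearts and 95.6 ± 17.4 rescaled TPM in Con hearts (log2 difference 0.05, SE 0.39, limma adjusted p = 0.967). In CAC hearts it ran from 1.78 to 39.3 rescaled TPM with a median of 3.67, with a CAC minus NCAC log2 difference of -3.97 (limma adjusted p = 4.37e-13), or -4.41 without CAC replicate 3.

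Atrophy and fuel genes did not pass either. Fbxo32 and Trim63, the ubiquitin ligases of muscle atrophy, averaged 48.5 ± 6.29 rescaled TPM in NCAC hearts and 46.5 ± 6.45 rescaled TPM in Con hearts, and 139 ± 14.9 rescaled TPM in NCAC hearts and 128 ± 7.66 rescaled TPM in Con hearts (limma adjusted p = 0.911 and 0.704). Pdk4, which limits glucose oxidation, averaged 202 ± 58.4 rescaled TPM in NCAC hearts and 179 ± 102 rescaled TPM in Con hearts, and the glucocorticoid target Fkbp5 averaged 4.47 ± 2.09 rescaled TPM in NCAC hearts and 4.09 ± 1.74 rescaled TPM in Con hearts (limma adjusted p = 0.690 and 0.949). None of 15 atrophy and FOXO genes, 31 fatty acid oxidation genes (median 0.08), 22 glycolysis genes or 19 glucocorticoid targets passed in limma, and 2, 3, 1 and 1 of them had an unadjusted p under 0.05. Nor did any of 28 collagen and matrix genes (median -0.30), of which 7 had an unadjusted p under 0.05, where Col1a1, the chain of type I collagen, averaged 22.2 ± 10.7 rescaled TPM in NCAC hearts and 28.9 ± 3.83 rescaled TPM in Con hearts (log2 difference -0.53, SE 0.27, limma adjusted p = 0.273). None of 20 clock genes passed and 1 had an unadjusted p under 0.05 (median 0.10), with the core factor Arntl at 2.19 ± 1.33 rescaled TPM in NCAC hearts and 3.88 ± 3.94 rescaled TPM in Con hearts and its output gene Dbp at 99.4 ± 19.7 rescaled TPM in NCAC hearts and 81.9 ± 25.7 rescaled TPM in Con hearts (limma adjusted p = 0.768 and 0.741). An adjusted p above 0.05 does not show that these levels were equal.

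**Figure D5:**
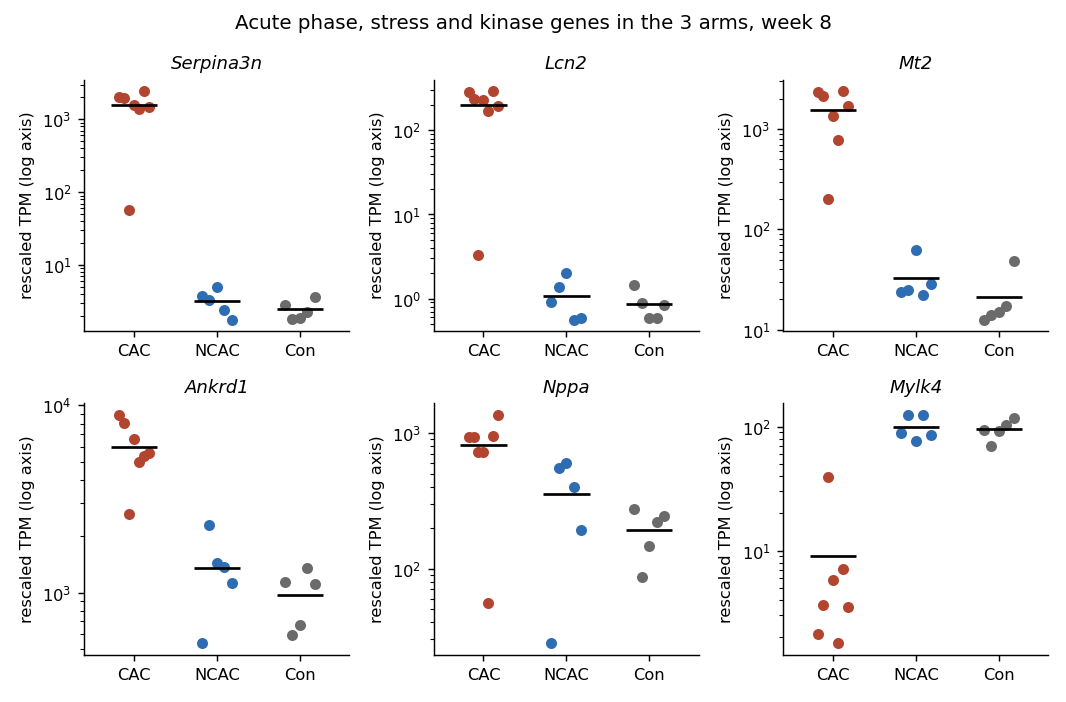
Rescaled TPM of Serpina3n, Lcn2, Mt2, Ankrd1, Nppa and Mylk4 on a log axis in each week 8 heart of the CAC (n = 7), NCAC (n = 5) and Con (n = 5) arms, with a bar at the mean. The NCAC and Con points overlap for all 6 genes, while the CAC points of Serpina3n run from 56.9 to 2432 rescaled TPM and those of Mylk4 from 1.78 to 39.3 rescaled TPM.

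For every gene the NCAC minus Con difference at week 8 was also set against its mean over weeks 2, 4 and 6. The week 8 difference was more positive for 243 genes (1.94%) and more negative for 65 (0.518%). These included 234 of the 519 genes that rose at week 8 and 57 of the 210 that fell. Both tests use the same week 8 libraries, which favours such an overlap in advance. Of the ribosomal protein genes 18 of 40 were among the 243, of the respiratory chain genes 8 of 43 and of the proteasome subunits 5 of 26. The difference of differences was 0.53 (limma adjusted p = 0.00291) for Rps18, 0.89 (limma adjusted p = 0.0248) for mt-Nd6, -0.89 (limma adjusted p = 0.0469) for Irgm1 and -0.44 (limma adjusted p = 0.0452) for Irf1 on the log2 scale. The interferon-gamma list, taken as the median deviation of its genes from their means over 61 libraries, averaged 0.27, 0.31, 0.15 and -0.22 in NCAC hearts at weeks 2, 4, 6 and 8. In Con hearts it averaged -0.03, -0.11, 0.15 and 0.43 at those weeks. At week 8 single hearts ran from -0.48 to -0.09 in NCAC and from -0.07 to 1.16 in Con. With TPM as deposited no gene passed this test in limma, where 348 higher and 1297 lower had an unadjusted p under 0.05, and with the length trend removed 24 and 4 passed. Without NCAC replicate 3 the counts were 75 and 9, and without NCAC replicate 5 they were 473 and 204. They were 151 and 25 without NCAC replicate 2 and 158 and 34 without Con replicate 3, and the negative count was 28, 36 and 31 without NCAC replicate 4, Con replicate 1 and Con replicate 5.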

How the data were processed

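Whole-heart RNA was taken up in Trizol and sequenced on a NovaSeq instrument from stranded mRNA libraries, per the labels' protocols. Alignment was to mm10, per the submitters' processing notes. Aligner, counting tool and annotation are not given in the sources used here. What the authors deposited is TPM, a share of each library, for 47643 gene symbols, 24270 of them at 0 everywhere. No batch or date is labelled, and a 3-week LLC time point named in the protocol belongs to none of the samples.

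The TPM values were rescaled by medians of ratios over 12372 genes and taken as log2(TPM + 1). A gene was tested if 5 or more libraries reached 1 TPM (12541 genes). limma 3.58.1 (trend, R 4.3.3) fitted group means over 61 libraries of 12 groups. Con week 4 replicate 2 was left out because its library stood apart, and all 62 were an alternative. P-values were Benjamini-Hochberg adjusted at a threshold of 0.05, and the code was tested on simulated data. Lengths came by symbol from GENCODE M21 (45134 matched), whose version is assumed. Tables were read with the data.table package, version 1.17.8, and with pandas 2.3.3 and numpy 2.4.6 under Python 3.11.15. Figures were drawn in matplotlib 3.10.9.

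The comparison, the 50 gene lists and the rules were chosen with earlier results of these data known. Named genes were the 12 largest called rises and falls among genes with a group mean of at least 1 TPM and 4 of 5 NCAC hearts beyond the Con median, leaving out predicted genes, pseudogenes and clone names, called members of 18 described lists (the 4 of smallest p beyond 5), a panel of 17 genes and the 4 largest changes each way against earlier weeks under the same limits. The described lists were those of the 50 with the largest share called in this comparison, except the acute phase list, which had none called. Gm2000, Gm4841 and Iigp1 were added after their values were seen. The labels do not say whether hearts shared a litter or cage, so p-values measure only the spread between hearts as labelled. For limma that spread was pooled within groups over 61 libraries of 12 groups, and was not taken from the compared hearts alone. Results of 1 gene are not reported here.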

Additional observations from a re-analysis of the deposited data

Results flagged for a closer look

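Single hearts stood far from the others of their group for some named genes, by Dixon's criterion at the 95% level, which chance meets in about 1 of 20 groups; 138 groups were looked at. NCAC replicate 3 had 3854 rescaled TPM of Tnni3, where the other NCAC hearts had 2928 to 3166 rescaled TPM. The same heart had 62.6 rescaled TPM of Mt2 (others 22.1 to 28.6), 474 of Myh7 (others 363 to 391), 306 of Pdk4 (others 166 to 186) and 8.07 of Fkbp5 (others 2.66 to 4.18). NCAC replicate 1 had 2.00 rescaled TPM of Gm4841 (others 0.0852 to 0.464). Among Con hearts, replicate 4 had 28.1 rescaled TPM of Kpna2 (others 4.57 to 6.49) and 933 of Acta1 (others 209.9 to 366), and replicate 5 had 48.0 of Mt2 (others 12.6 to 17.4).

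The NCAC minus Con difference at week 8 departed from its mean over weeks 2, 4 and 6 for further named genes, tested as a contrast in the limma fit. Among the ribosomal protein genes the departure was 0.53 (limma adjusted p = 0.00291) for Rps18, 0.56 (limma adjusted p = 0.00129) for Rpl39, 0.48 (limma adjusted p = 0.00327) for Rps21, 0.37 (limma adjusted p = 0.00291) for Rps7, 0.40 (limma adjusted p = 0.00648) for Rpl13 and 0.51 (limma adjusted p = 0.00327) for Rps27 on the log2 scale. Among mitochondrial and proteasome genes it was 0.89 (limma adjusted p = 0.0248) for mt-Nd6, 0.35 (limma adjusted p = 0.00680) for Cox7b, 0.32 (limma adjusted p = 0.0282) for Cox5a, 0.37 (limma adjusted p = 0.00709) for Ndufa5, 0.23 (limma adjusted p = 0.0265) for Ndufa12, 0.33 (limma adjusted p = 0.00519) for Hspe1, 0.23 (limma adjusted p = 0.0145) for Psmb3 and 0.19 (limma adjusted p = 0.0258) for Psmb7. For interferon and antigen presentation genes it was -0.89 (limma adjusted p = 0.0469) for Irgm1, -0.62 (limma adjusted p = 0.0437) for Parp14, -0.56 (limma adjusted p = 0.0222) for Rnf213, -0.44 (limma adjusted p = 0.0452) for Irf1, -0.52 (limma adjusted p = 0.0405) for Stat2 and -0.38 (limma adjusted p = 0.0235) for Tapbp. The remaining genes were Csf1r at -0.39 (limma adjusted p = 0.0468), Notch1 at -0.35 (limma adjusted p = 0.0333), Rptor at -0.17 (limma adjusted p = 0.0322), Adipoq at 0.75 (limma adjusted p = 0.0329), Scand1 at 0.75 (limma adjusted p = 0.0405) and Gm2000 at 1.43 (limma adjusted p = 0.00291). All of these 26 differences had the same sign as the week 8 difference itself. That difference is part of the contrast, so a shared sign was favoured in advance and adds no support.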

How the results depend on the processing

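Of 50 named genes past the test, all those fitted kept their direction under every setting, and 18 still passed with TPM as deposited, 18 with all 62 libraries, 17 of 48 with the 10 week 8 libraries alone, 46 with a pseudocount of 0.1, 35 with no filter on low values, 50 with array quality weights, 14 with the length trend removed and 0 of 48 with the replicate block in the 10 libraries alone. The counts of 519 genes higher and 210 lower came to 61 and 28 with TPM as deposited, 197 and 42 with all 62 libraries, 81 and 15 with the 10 libraries alone, and 859 and 606 with array quality weights. With the NCAC and Con groups alone 336 were lower. Against weeks 2, 4 and 6 the counts of 243 and 65 came to 0 and 0 as deposited, 76 and 13 with all 62 libraries and 489 and 245 with array quality weights, and the lower count to 32 with no filter. Those 0 counts were from limma, with 348 higher and 1297 lower at an unadjusted p under 0.05, and the cause of these shifts was not tested. Leaving out 1 heart at a time gave 185 to 751 higher and 59 to 450 lower, and 75 to 473 and 9 to 204 against earlier weeks. Among settings added once the values were known, dropping Con replicates 1 and 5 gave 165 and 49, and 69 and 14 against earlier weeks, and removing the length trend gave 110 and 44, and 24 and 4; leaving out Con week 2 replicate 1 or CAC week 8 replicate 3 ended no named call. The mitochondrial share differed by -0.439 to -2.49 percentage points without 1 heart each, and by -2.49 without Con replicate 2 (exact permutation p = 0.0238). CAC minus NCAC turned positive with TPM as deposited for Cox7b (0.0057), Psmb3 (0.11), Psmb7 (0.020), Psmb1 (0.24), Psmb6 (0.14), Hspb1 (0.024) and Rptor (0.052), a scale on which the median of all genes was 0.24 rather than 0.0028; the NCAC minus Con median was -0.05 there rather than -0.0041. With the replicate number as a block, 1 gene was higher and 0 lower in the 10 libraries alone (1083 and 1002 at an unadjusted p under 0.05), and 498 and 195 in all groups; deviations of same-numbered hearts correlated between -0.218 and 0.129, and the numbers were not taken to pair hearts. Read depth is not given, which limits what can be said of genes near 1 TPM.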

Other observations

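The pseudogene H2-Ea-ps of the MHC class II region differed between single mice. It had 10.4 to 18.5 TPM as deposited in the 5 NCAC hearts at week 8, while in Con hearts it ran from 0 in replicates 2 and 5 to 51.5 TPM in replicate 1. Over all 62 libraries 4 were at 0, in 3 groups, and the lowest value above 0 was 0.0973 TPM. Kpna2 spread in a like manner, from 2.93 to 31.8 rescaled TPM over 61 libraries, with 16 under 10 and 18 at 20 or more rescaled TPM. Whether either spread follows the genetic background of the mice, on which the labels and the series text differ, was not tested.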
